A study of Homo sapiens with 6 samples.

Results

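The adenylyl cyclase family is described here by the 9 genes of its membrane-bound branch, *ADCY1* to *ADCY9*. They were found by gene name among the 60655 genes of the authors' count table, and all 9 were listed once. WaGa is an established Merkel cell carcinoma (MCC) cell line that carries Merkel cell polyomavirus. The study used RNA immunoprecipitation followed by sequencing (RIP-seq), in which an antibody pulls a protein and its RNA out of a lysate and that RNA is sequenced beside the RNA of a control immunoprecipitation (IP), to look for RNAs bound by IGF2BP3. IGF2BP3, named IMP3 in the sample labels, is an oncofetal RNA-binding protein known for regulating the stability and translation of the mRNAs it binds.

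Each antibody gave 3 libraries, numbered 1 to 3 in both the IgG IP and the IGF2BP3 IP. All 6 came from WaGa cells of wild-type genotype without treatment, so the antibody is the one labelled difference between the groups. The libraries came from a single cell line, and no input RNA library was analysed here, so a value in the IgG IP is a background level of the IP and not a level in the cell. The labels call the replicates independent without saying whether the libraries that share a number were made from the same lysate.

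Membrane adenylyl cyclases convert ATP to cyclic AMP (cAMP), the second messenger that activates protein kinase A (PKA), EPAC exchange factors and cyclic nucleotide-gated channels. The stimulatory G protein Gs activates all of them. The members differ in their other input: ADCY1, ADCY3 and ADCY8 respond to calcium and calmodulin, ADCY5 and ADCY6 are inhibited by calcium, ADCY2, ADCY4 and ADCY7 are stimulated by G beta-gamma subunits, and ADCY9 stands apart as the member least sensitive to forskolin. ADCY1 is best known from neurons, and ADCY3 from olfactory neurons and primary cilia.

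IGF2BP proteins are known to bind CA-rich RNA, so the 3′ untranslated regions (3′UTRs) of the members were read for the letters ACACA, searched on the transcribed strand with overlapping matches counted. The following windows of 30 bases are those with the most matches in each 3′UTR, the first one where windows tied, taken from canonical GENCODE 44 transcripts (GRCh38) and written 5′ to 3′ as the transcript reads with T for U. The capitals mark ACACA. *ADCY1* and *ADCY9* are shown because they are the members past the enrichment thresholds, and *ADCY5* and *ADCY2* because their 3′UTRs hold the letters most densely.
*ADCY9*, chr16:3965269-3965298, minus strand: tctctatgtaagcACACAtgcgcACACACA
*ADCY1*, chr7:45714025-45714054, plus strand: atggggtgggaatgctccgggggtgACACA
*ADCY5*, chr3:123283473-123283502, minus strand: ttctgACACAcgcacacgtatgtACACACA
*ADCY2*, chr5:7827129-7827158, plus strand: aacagaggagaaaggtgaaACACACACACA

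The *ADCY9* window held 3 matches, that of *ADCY1* 1, that of *ADCY5* 3 and that of *ADCY2* 4. Of all 24604748 windows of this length in the 3′UTRs of tested genes, 2.89% held at least 1 match, 0.141% at least 3 and 0.0810% at least 4. These shares are over single windows, whereas each window shown was picked as the richest of its 3′UTR. They therefore do not say how rare such a window is among the richest windows of other 3′UTRs, which was not computed. Over the whole 3′UTR, *ADCY9* held 7 matches in 3122 bases (2.24 per kb) and *ADCY1* held 8 in 9121 bases (0.877 per kb). The median over the tested genes was 0.926 per kb, and 68.2% of their 3′UTRs of at least 100 bases held a match. *ADCY1* thus carried the letters at about the density of a typical 3′UTR, spread over a 3′UTR longer than 98.2% of those compared. The density was 4.05 per kb in *ADCY2* and 4.33 per kb in *ADCY5*. No ACACA was found in the 3′UTRs of *ADCY3* (763 bases) and *ADCY6* (2397 bases), which says only that these letters are not in those sequences.

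Library totals ran from 9758759 to 14886414 counts. CPM are a gene's counts scaled to a common library size after TMM normalization. The expression filter of edgeR kept 14507 genes, of which 169 were enriched in the IGF2BP3 IP (quasi-likelihood test, fold change of at least 1.5 and Benjamini-Hochberg adjusted p-value under 0.05) and 0 were lower, with 558 higher and 59 lower by at least 1.5-fold at an unadjusted p-value under 0.05. DESeq2 gave 281 and 0. Replicate 1 of each group stood apart, with deviations from the group mean that correlated across genes at -0.42 to -0.36 with those of replicates 2 and 3 of the other group, so results are also given without both replicate 1 libraries. All 8 markers of MCC cells were detected in each library, at 443 to 15857 counts. Of 13 markers of lymphoid, stromal, keratinocyte, melanocyte and endothelial cells, 10 had at most 10 counts in any library, and the highest was *DCN* at 479 to 762 counts. The summed level of the 8 MCC markers was 3685 to 4037 CPM in the IgG IP and 3709 to 3959 CPM in the IGF2BP3 IP, and that of the 13 others was 50.3 to 54.1 CPM and 43.1 to 48.6 CPM.

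Of the 9 members, 4 passed the filter on low counts (*ADCY1*, *ADCY3*, *ADCY6* and *ADCY9*) and 5 did not. Past the thresholds for enrichment were *ADCY1* and *ADCY9*, against 1.16% of all tested genes. In *ADCY1*, *ADCY3* and *ADCY9* the 3 IGF2BP3 IP libraries all exceeded the 3 IgG IP libraries, as they did in 12.0% of tested genes. All 4 tested members had a fitted log2 fold change above 0, as did 48.9% of tested genes, and with DESeq2 the same 2 members passed the thresholds, against 2.22%. The family was chosen with these values known, so nothing is read from these counts. The thresholds describe which members were called, and the p-values of the members are not printed.

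*ADCY1*, a calcium and calmodulin-stimulated cyclase, was the most abundant member. Its gene (ENSG00000164742.16) spans positions 45574140 to 45723116 of chromosome 7 (GRCh38, plus strand), and its canonical transcript has 20 exons and 12657 bases. IgG IP replicates 1 to 3 had 647, 1265 and 1130 counts, and the IGF2BP3 IP replicates 1752, 2434 and 2020. As normalized CPM these were 70.1, 84.8 and 91.1 against 147, 184 and 164. The lowest IGF2BP3 IP library lay well above the highest IgG IP library. The means were 82.0 ± 10.8 (SD, n = 3) and 165 ± 18.4 CPM (SD, n = 3), a 2.01-fold difference with a log2 fold change of 1.01 (fitted standard error, SE, of 0.12 and 95% confidence interval of 0.73 to 1.28). By size of log2 fold change it ranked 120 among the 14507 tested genes. Between libraries of the same number the log2 ratio of CPM was 1.07, 1.12 and 0.85.

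*ADCY9*, the cyclase least sensitive to forskolin, had fewer counts and the larger ratio. The gene (ENSG00000162104.10) spans positions 3953387 to 4116442 of chromosome 16 (minus strand), and its canonical transcript has 11 exons and 7980 bases. The counts were 75, 190 and 106 with IgG and 251, 337 and 295 with IGF2BP3, or 8.13, 12.7 and 8.55 CPM against 21.1, 25.5 and 24.0 CPM. IgG IP replicate 2 was the highest of the control libraries, and the groups did not overlap. The means were 9.80 ± 2.54 (SD, n = 3) and 23.5 ± 2.23 CPM (SD, n = 3), a 2.37-fold difference with a log2 fold change of 1.25 (SE 0.19, 95% confidence interval 0.83 to 1.67), which ranked 43. The same-number log2 ratios of CPM were 1.37, 1.00 and 1.49. Neither *ADCY1* nor *ADCY9* shares exon bases with another gene annotated in GENCODE 44.

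*ADCY3*, also calcium and calmodulin-responsive, was closer in level between the groups. It spans positions 24819169 to 24920237 of chromosome 2 (minus strand), with 22 exons and 4950 bases in the canonical transcript. The counts were 97, 174 and 140 with IgG and 152, 231 and 178 with IGF2BP3, or 10.5, 11.7 and 11.3 CPM against 12.8, 17.4 and 14.5 CPM. The groups did not overlap, with IGF2BP3 IP replicate 1 nearest to the controls. The log2 fold change was 0.41 (SE 0.15, 95% confidence interval 0.07 to 0.76), a 1.33-fold difference. It met neither the fold-change threshold nor that on the adjusted p-value. The interval is that of a single gene, without adjustment for the number of genes tested. Of the 6456 exon bases of *ADCY3*, 1488 also belong to *CENPO*, a centromere protein gene on the opposite strand. *CENPO* held 244 to 502 counts and had a log2 change of 0.56 (SE 0.10, edgeR adjusted p = 0.038). Whether the counting used the strand is not stated in the sources used here, so reads from the shared exons could have been assigned to either gene, and their part in the *ADCY3* value was not tested.

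*ADCY6*, a calcium-inhibited cyclase on chromosome 12, showed no separation. It had 16, 46 and 38 counts with IgG and 39, 34 and 41 with IGF2BP3, or 1.73, 3.08 and 3.07 CPM against 3.27, 2.57 and 3.33 CPM. IgG IP replicate 1 was the lowest library, and the other control libraries lay within the range of the IGF2BP3 IP. The log2 fold change was 0.19 (SE 0.28), with a 95% confidence interval from -0.44 to 0.82 that leaves room for a difference past 1.5-fold upward. Without IgG IP replicate 1 the log2 fold change was -0.01, and without both replicate 1 libraries it was -0.06.

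**Figure D1:**
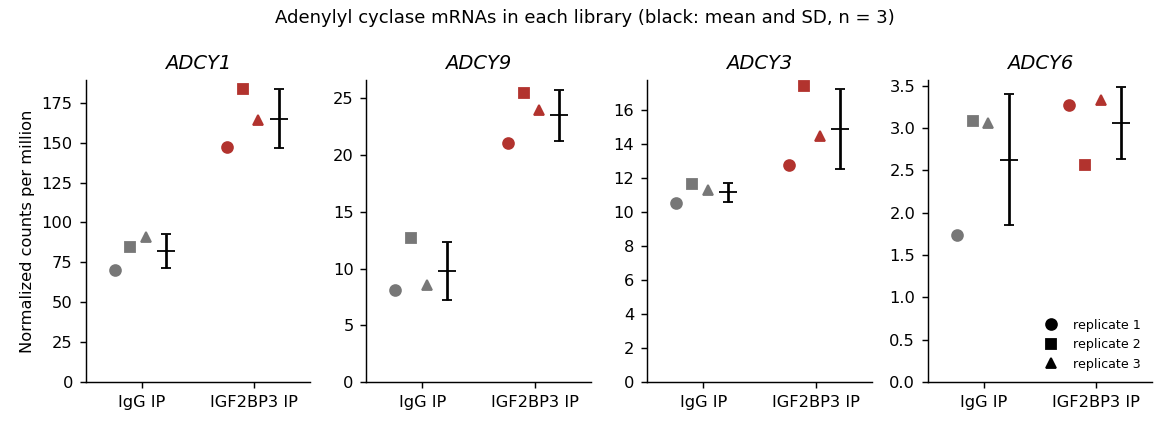
Normalized CPM (vertical axis, from 0) of *ADCY1*, *ADCY9*, *ADCY3* and *ADCY6* in each IgG IP library (grey) and IGF2BP3 IP library (red), with marker shapes for replicates 1 to 3 and the mean and SD of 3 libraries in black. The groups do not overlap in the first 3 panels, with means of 82.0 and 165 CPM for *ADCY1*, and overlap for *ADCY6*.

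The remaining 5 members did not pass the filter on low counts. *ADCY5* had 0, 10 and 6 counts with IgG and 3, 8 and 14 with IGF2BP3, and *ADCY7* had 0, 4 and 2 against 1, 10 and 1. Both overlapped between the groups. *ADCY7* shares 3593 of its 8595 exon bases with *BRD7*, a bromodomain gene on the opposite strand with 1101 to 2005 counts. *ADCY8*, the other calcium and calmodulin-stimulated member, had 2, 1 and 3 counts in the IgG IP and 0 in each IGF2BP3 IP library. *ADCY4* had 0, 2 and 2 counts against 0 in each, and *ADCY2* had 1 count, in IGF2BP3 IP replicate 1. A floor of 3 counts corresponds to 0.201 to 0.325 CPM in these libraries, so for *ADCY2*, *ADCY4* and *ADCY8* both groups lay at or under it and no fold is given. The floors cover counting error only. In the edgeR fit with no filter beyond 1 count, none of the 5 was past the thresholds. In that fit 1 of them, *ADCY8*, was lower by at least 1.5-fold at an unadjusted p-value under 0.05, as were 242 of 29184 genes. With its counts at or under the floor, nothing is read from it. *ADCY2* and *ADCY5*, whose 3′UTR sequences are shown above, thus had at most 14 counts in any library.

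Levels can be set against each other between members only per length, here as TPM, the authors' RSEM estimates, which are scaled to transcript length and to depth. In bulk libraries the share of cells that carry an mRNA and its amount per cell cannot be told apart. In the IgG IP *ADCY1* was at 7.08, 9.38 and 11.69 TPM, *ADCY3* at 4.95, 5.46 and 3.87 TPM, and *ADCY9* at 0.91, 1.99 and 2.96 TPM. *ADCY6* was at 0.24, 0.77 and 0.57 TPM, *ADCY7* at 0, 0.80 and 0.34 TPM, and *ADCY5* at 0, 0.12 and 0.08 TPM. *ADCY1* stood above *ADCY3*, *ADCY3* above *ADCY9* and *ADCY9* above *ADCY6* in each of the 3 libraries, whereas by TPM *ADCY6* and *ADCY7* overlapped, as did *ADCY7* and *ADCY5*. The *ADCY7* values rest on 0, 4 and 2 counts, against 16, 46 and 38 for *ADCY6*. By counts per kb of canonical transcript, *ADCY7* made up 0%, 0.377% and 0.229% of the family in the IgG IP. *ADCY6* made up 3.16%, 4.46% and 4.47%, without overlap. *ADCY8* and *ADCY4* reached at most 0.15 and 0.06 TPM, and *ADCY2* was listed at 0 in all 6 libraries.

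*ADCY1* made up 54.5% ± 4.51 (SD, n = 3) of the summed TPM of the 9 members in the IgG IP, *ADCY3* 28.9% ± 8.97, *ADCY9* 10.9% ± 4.06 and *ADCY6* 2.95% ± 1.16. In the IGF2BP3 IP the shares were 64.0% ± 3.32 (SD, n = 3), 18.2% ± 3.36, 13.6% ± 0.819 and 3.04% ± 1.77. *ADCY1* and *ADCY3* together held most of the family's level in either group, and *ADCY1* held the most in all 6 libraries. From counts per kb of canonical transcript the IgG IP shares were 61.5% for *ADCY1*, 21.5% for *ADCY3*, 11.6% for *ADCY9* and 4.03% for *ADCY6*, in the same order.

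**Figure D2:**
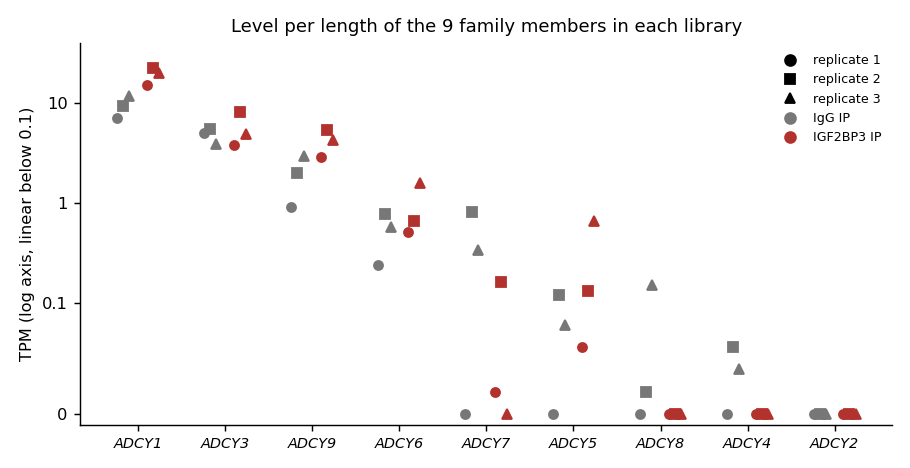
Level per length (TPM, log axis that is linear below 0.1) of the 9 members in each IgG IP library (grey) and IGF2BP3 IP library (red), with marker shapes for replicates 1 to 3. *ADCY1* is the highest member in all 6 libraries, at 7.08 to 22.19 TPM, and *ADCY2* is listed at 0 in all of them.

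The ratios between members within a library do not depend on library size. The ratio of *ADCY1* to *ADCY3* counts was 6.67, 7.27 and 8.07 with IgG and 11.5, 10.5 and 11.3 with IGF2BP3, and that of *ADCY9* to *ADCY3* counts was 0.773, 1.09 and 0.757 against 1.65, 1.46 and 1.66. By counts both ratios separated the groups without overlap, and formed from TPM both overlapped. How often the ratio of other gene pairs separates the groups was not computed. The counts of *ADCY3* also carry the open question of the exons shared with *CENPO*. The ratio of *ADCY1* to *ADCY9* counts was 8.63, 6.66 and 10.7 with IgG and 6.98, 7.22 and 6.85 with IGF2BP3, with the IGF2BP3 IP values inside the range of the controls. The ratios to *ADCY3* restate the fold changes of members that were chosen with these values known, so nothing more is read from them. The ratio of *ADCY1* to *ADCY9* was not set apart from the IgG IP.

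The TPM values gave the same direction for *ADCY1* and *ADCY9* with a wider spread. *ADCY1* was at 15.13, 22.19 and 19.84 TPM in the IGF2BP3 IP, all above the IgG IP. *ADCY9* was at 2.89, 5.29 and 4.21 TPM there, and IGF2BP3 IP replicate 1 lay below IgG IP replicate 3 at 2.96 TPM, so the groups overlapped. The same-number log2 ratios of TPM were 1.10, 1.24 and 0.76 for *ADCY1*, and 1.67, 1.41 and 0.51 for *ADCY9*. For *ADCY3* they were -0.38, 0.56 and 0.33, and for *ADCY6* 1.09, -0.24 and 1.47. *ADCY3* was thus higher in all 3 pairs by counts and in replicates 2 and 3 by TPM.

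The disagreement can be located by dividing each library's counts by its TPM, by the library's scale and by the gene's median over the libraries. This index is near 1 where counts and TPM move together. For *ADCY9* it was 0.472 in IgG IP replicate 3 and 0.854 to 1.06 in the other 5 libraries, so the TPM of that library was high for its 106 counts. For *ADCY6* it was 0.474 in IGF2BP3 IP replicate 3, and for *ADCY3* it ranged from 0.586 to 1.21. For *ADCY1* the largest index was 1.29 times the smallest, near the median of 1.27 over 14002 genes, and for *ADCY3*, *ADCY9* and *ADCY6* this ratio was 2.07, 2.24 and 2.42.

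**Figure D3:**
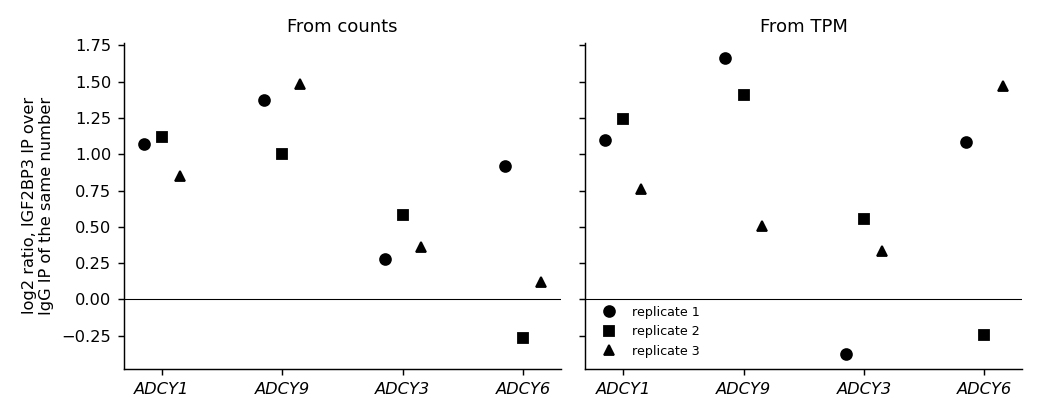
log2 ratio of the IGF2BP3 IP library over the IgG IP library of the same number (vertical axis) for 4 members, from counts as normalized CPM on the left and from TPM on the right, with marker shapes for replicates 1 to 3. *ADCY1* and *ADCY9* are above 0 in all pairs on both scales, and *ADCY3* replicate 1 turns from 0.28 by counts to -0.38 by TPM.

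How far the calls of *ADCY1* and *ADCY9* rest on the processing was followed across 16 other settings. Both remained past the thresholds with DESeq2, with other library scalings or filters, with the replicate number as a block, with a per-library correction for transcript GC content, and without either or both replicate 1 libraries. Neither was past them with limma-trend on log2(TPM + 1), where their log2 fold changes were 0.96 and 0.83 and the median of all tested genes was 0.11. The same held when IGF2BP3 IP replicate 2, IgG IP replicate 3 or replicate 3 of the IGF2BP3 IP was left out, and without IgG IP replicate 2 *ADCY9* was past them and *ADCY1* was not. In those fits the number of enriched genes in the whole table was 0, 7, 23 and 19. The log2 fold changes themselves moved less: leaving out single libraries or both replicate 1 libraries gave 0.91 to 1.09 for *ADCY1* and 1.14 to 1.49 for *ADCY9*. The GC content of the canonical transcripts was 55.2% for *ADCY1*, 57.9% for *ADCY9*, 59.7% for *ADCY3* and 57.9% for *ADCY6*, against a median of 47.7% over tested genes. With the GC correction the log2 fold changes were 0.88 for *ADCY1*, 1.08 for *ADCY9*, 0.22 for *ADCY3* and 0.02 for *ADCY6*, each lower than without it.

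**Figure D4:**
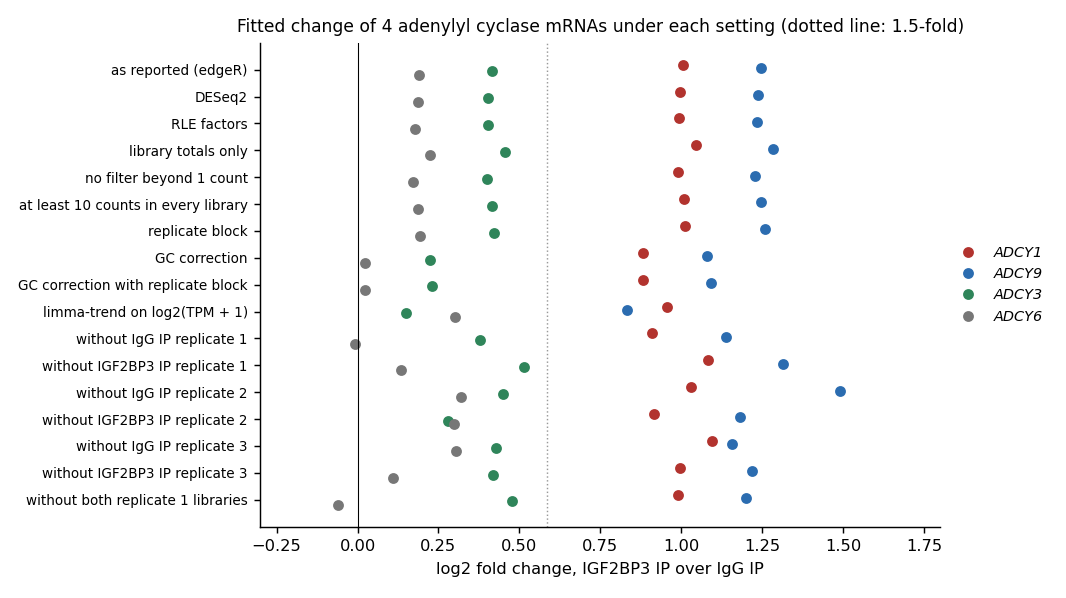
Fitted log2 fold change of IGF2BP3 IP over IgG IP (horizontal axis) for 4 members under the reported edgeR fit and 16 other settings (rows), with the 1.5-fold threshold dotted. *ADCY1* (red, 0.88 to 1.09) and *ADCY9* (blue, 0.83 to 1.49) lie to the right of the dotted line in all rows, *ADCY3* (green, 0.15 to 0.51) lies between 0 and the line, and *ADCY6* (grey) lies between -0.06 and 0.32.

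By likeness of pattern over the 6 libraries, measured as the root mean square difference of log2 CPM after centring each gene, the tested gene nearest to *ADCY1* was *GNA11*, a Gq-class G alpha subunit, at 0.0442, followed by *LPCAT3*, a phospholipid acyltransferase, at 0.0864 and *ARHGAP1*, a GTPase-activating protein, at 0.0879. The median over all tested genes was 0.561. The log2 fold changes of these genes were 1.00, 0.93 and 1.00. Nearest to *ADCY9* were *RAVER1*, a splicing coregulator, at 0.112, *AC012313.1* at 0.147 and *C1QL2*, a secreted C1q-like synaptic protein, at 0.153, against a median of 0.701. The measure takes in the difference between the groups, for which the members were chosen.

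The rest of the cAMP pathway was listed in 71 genes, from the G alpha subunits to the transcription factors at its end. Of these, 52 were tested, 2 were enriched in the IGF2BP3 IP (3.85%, against 1.16% of all tested genes) and 0 were lower (edgeR, thresholds as above), with 5 higher and 1 lower by at least 1.5-fold at an unadjusted p-value under 0.05. DESeq2 also gave 2 and 0. The median log2 fold change of the 52 was -0.01, and that of all tested genes was also -0.01. In 11 of the 52 the IGF2BP3 IP libraries all exceeded the IgG IP libraries and in 8 they were all below them, against 12.0% and 8.69% of all tested genes. With the replicate number as a block, 5 were enriched, against 3.56% of tested genes: *CRTC1*, *CRTC2*, *CRTC3*, *GNAO1* and *PDE2A*.

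Among the G alpha subunits that act on cyclases, 6 of 7 were tested and *GNAO1*, the Go subunit abundant in neural and neuroendocrine cells, was enriched. Its CPM were 28.2 ± 4.02 (SD, n = 3) in the IgG IP and 50.2 ± 9.24 (SD, n = 3) in the IGF2BP3 IP, and its log2 fold change was 0.83 (SE 0.16, adjusted p = 0.045, edgeR). The call was lost with the GC correction (0.72), with limma-trend on TPM (0.85) and without any one library other than IGF2BP3 IP replicate 1, with log2 fold changes of 0.70 to 0.91 in those fits. *GNAS*, the stimulatory subunit itself, held 19393 to 37405 counts and had a log2 fold change of -0.14 (SE 0.12). The lowest value was that of *GNAI1*, an inhibitory subunit, at -0.24 (SE 0.17).

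Of 10 genes of other cyclase input, 9 were tested and none was past the thresholds (edgeR), and at any fold and an unadjusted p-value under 0.05 there were 2 higher and 0 lower. The share of all tested genes at any fold was not computed, so such counts, here and below, have no background beside them. The highest log2 fold change was that of the calmodulin gene *CALM3* at 0.43 (SE 0.09, adjusted p = 0.068, edgeR), and the lowest that of *RIC8B*, a G alpha chaperone, at -0.21 (SE 0.10). *ADCY10*, the soluble cyclase activated by bicarbonate and the relative outside the membrane branch, had 26 to 67 counts and a log2 fold change of -0.07 (SE 0.26). *ADCYAP1*, which encodes the cyclase-activating peptide PACAP, had 73 to 131 counts, and its receptor *ADCYAP1R1* was at 0 in all 6 libraries.

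Downstream of cAMP, 8 of 10 PKA subunits and inhibitors were tested. Their log2 fold changes ran from -0.23 for *PKIB*, a PKA inhibitor, to 0.15 for *PRKACA*, a catalytic subunit, and in 3 of the 8 the groups separated with the IGF2BP3 IP lower, as in 8.69% of tested genes. None was past the thresholds (edgeR), and at any fold and an unadjusted p-value under 0.05 there were 0 higher and 3 lower. The any-fold share of all tested genes was not computed. By at least 1.5-fold there were 0 and 0, against 558 and 59 of the 14507 tested genes. Of 5 EPAC and Popeye genes 2 were tested, with log2 fold changes of 0.24 for *BVES*, a cAMP-binding membrane protein, and -0.02 for *RAPGEF4*, which encodes EPAC2, while *RAPGEF3*, which encodes EPAC1, was at 0 in all 6 libraries.

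Among the phosphodiesterases that degrade cAMP, 9 of 16 were tested and none was past the thresholds (edgeR). At an unadjusted p-value under 0.05 there were 2 higher and 1 lower at any fold, and 1 and 1 by at least 1.5-fold. *PDE2A*, which is stimulated by cGMP, had the highest value, with a log2 fold change of 0.88 (SE 0.30, adjusted p = 0.25, edgeR) at 1.70 ± 0.511 (SD, n = 3) and 3.23 ± 0.644 CPM (SD, n = 3), and its adjusted p was 0.049 with the replicate block. *PDE11A* had the lowest, at -1.13 (SE 0.42, adjusted p = 0.29, edgeR) over 6 to 32 counts. The A-kinase anchoring proteins, which tether PKA, had 10 of 15 genes tested and none past the thresholds (0 also at an unadjusted p-value under 0.05, edgeR), with log2 fold changes from -0.16 for *AKAP5* to 0.36 for *AKAP13*.

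At the end of the pathway all 8 genes of the CREB family and its coactivators were tested, with a median log2 fold change of 0.44 against -0.01 over all tested genes. *CRTC3*, a CREB-regulated transcription coactivator, was enriched, at 23.6 ± 1.13 (SD, n = 3) and 41.1 ± 3.61 CPM (SD, n = 3), with a log2 fold change of 0.80 (SE 0.11, adjusted p = 0.015, edgeR). The call was lost with limma-trend on TPM (0.72) and without replicate 2 or 3 of either group, with values of 0.75 to 0.82. The other coactivators had log2 fold changes of 0.74 for *CRTC1* (SE 0.29), 0.61 for *CRTC2* (SE 0.23), 0.47 for *CREBBP* (SE 0.13) and 0.40 for *EP300* (SE 0.13), and the factors themselves had -0.22 for *CREB1* (SE 0.09), -0.13 for *CREM* (SE 0.13) and -0.08 for *ATF1* (SE 0.10). The 5 coactivators were above 0, as were 48.9% of tested genes, and the 3 DNA-binding factors below it, with *CRTC3* past the thresholds. Single-gene confidence intervals included 0 for *CREM* (-0.41 to 0.16) and *ATF1* (-0.31 to 0.16). They did not for *CREB1* (-0.42 to -0.02) or the coactivators. *CREB1* turned to 0.077 with limma-trend on TPM. The split by role was made with these values known, so no contrast between coactivators and factors is read from it.

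**Figure D5:**
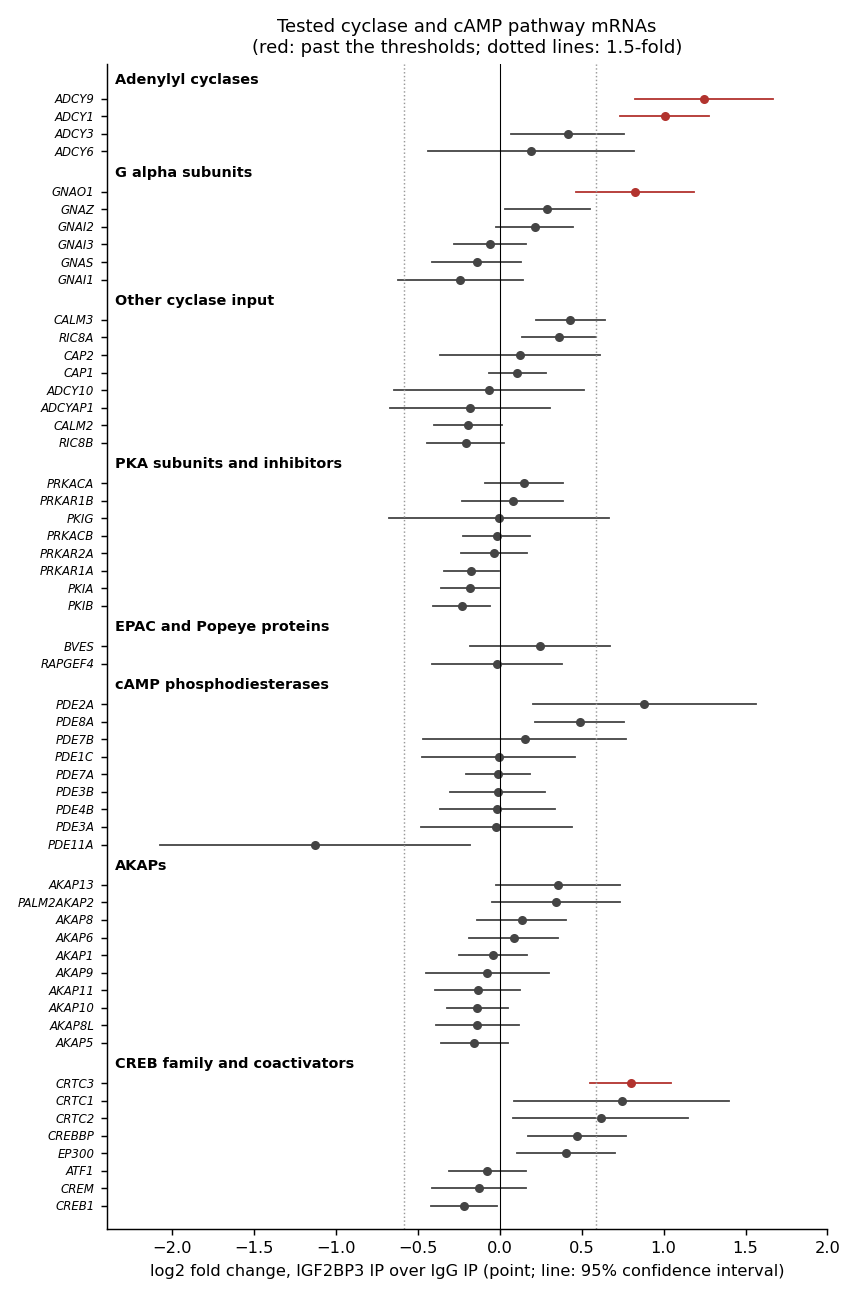
log2 fold change of IGF2BP3 IP over IgG IP (horizontal axis; points, with lines for the 95% confidence interval) for the 4 tested members and tested cAMP pathway genes, grouped by role, with dotted lines at 1.5-fold in either direction. Past the thresholds (red) are *ADCY9* and *ADCY1* at the top, *GNAO1* among the G alpha subunits and *CRTC3* among the CREB coactivators.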

How the data were processed

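The 6 RIP-seq libraries of WaGa cells, 3 per antibody, were grouped by their sample labels. The authors aligned paired-end reads of 150 bp to GRCh38 with STAR (version 2.7.9a), and RSEM was run with the annotation of GENCODE version 37. The deposited tables hold raw whole-number counts for each gene, and the TPM and FPKM values of RSEM, which the authors scaled to length and depth. RSEM is the quantification program the methods name. Whether it also made the count table, and with which strand setting, is not given in the sources used here.

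Genes were kept with filterByExpr, libraries were scaled with TMM, and the whole table was fitted in edgeR 4.0.16 under R 4.3.3 (quasi-likelihood test, a single term for the antibody). Enriched genes were at least 1.5-fold higher, with a p-value under 0.05 after Benjamini-Hochberg adjustment. The standard error was taken as the fitted change divided by the root of F. The p-values measure the spread between these libraries. FPKM values served only as a check of the TPM shares. Some of the fits were also run on simulated counts with known changes, drawn with a common dispersion and no replicate effect. Those counts lack the replicate difference seen in these libraries. The TPM fit and the fits without single libraries were not simulated, so nothing is read from the simulation.

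The alternatives were DESeq2 1.42.0 (the test named in the methods of the study), other scalings and filters, a loess GC correction (span 0.5), limma-trend (limma 3.58.1) on log2(TPM + 1), a replicate block and leaving out libraries. Deviations from the group means correlated between libraries of the same number (0.57 for replicate 1, 0.28 for replicate 2 and 0.23 for replicate 3). Replicates 2 and 3 correlated across numbers about as much (0.28 and 0.27), so for them these values do not tell which libraries pair. The replicate block and the same-number ratios take the numbers as pairs, which is an assumption. The main fit does not use it.

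Coordinates and sequences came from GENCODE version 44, where 60481 of the 60655 identifiers had a match. The members, the pathway list and the marker lists were chosen with earlier results of these data known. Named genes are all members, pathway genes past the thresholds, the highest and lowest of each pathway group, genes overlapping a member and the 3 nearest in pattern to *ADCY1* and *ADCY9*. *GNAS*, the other CREB-group genes, *ADCY10*, *ADCYAP1*, *ADCYAP1R1*, *RAPGEF3* and 2 of the guanylyl cyclases were added for their roles after their values were seen. A gene of the pathway list is counted with it and is not reported here by itself.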

Additional observations from a re-analysis of the deposited data

How the results depend on the processing

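In the whole table the number of enriched RNAs was 169, and it was 281 with DESeq2, 359 with no filter beyond 1 count, 81 with the GC correction, 0 with limma-trend on log2(TPM + 1) (476 higher and 34 lower by at least 1.5-fold at an unadjusted p-value under 0.05), and 0 to 244 when single libraries were left out. The number of lower RNAs was 0, and 1 with no filter. Leaving out both replicate 1 libraries, a setting chosen after seeing the data, gave 466 enriched and 8 lower RNAs. With limma-trend, 0 members and 0 pathway genes were past the thresholds. Without single libraries the number was 0 to 2 for the members and 0 to 2 for the pathway list, and with the GC correction it was 1 for the pathway list.

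With the replicate number as a block, 517 RNAs were enriched and 15 lower, and with the block and the GC correction together 272 and 34. The members past the thresholds were *ADCY1* and *ADCY9* as without the block, and 5 pathway genes were, with *CRTC1*, *CRTC2* and *PDE2A* (0.87) gained. No other call among the members and pathway genes changed with the block.

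The share of *ADCY1* in the summed level of the family in the IgG IP was 54.5% by TPM and 61.5% by counts per kb, and it was 64.0% in the IGF2BP3 IP. The share of *ADCY3* was 28.9% and 18.2% in the IgG IP and the IGF2BP3 IP by TPM.

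The sign turned for *ADCY6* without both replicate 1 libraries (-0.061) and without single libraries (-0.0081 to 0.32, the lowest without IgG IP replicate 1), for *CREB1* with limma-trend (0.077), and for *RAPGEF4* with library totals (0.020), with the GC correction (0.0039) and without single libraries (-0.075 to 0.11). The causes were not tested. Of 318 combinations of 20 named genes and 16 alternatives, 289 kept direction and side of the threshold, 21 lost a call, 1 gained it and 7 turned sign. *CRTC1* and *CRTC2*, which gained calls with the replicate block, are not among the 20. *CRTC1* also gained a call with no filter beyond 1 count, and *CRTC2* without both replicate 1 libraries. Each of these 2 settings had 3 pathway genes past the thresholds. Only *ADCY1*, *ADCY9*, *CRTC3* and *GNAO1* had a call to lose. They lost it in 5, 4, 5 and 7 of the 16 alternatives. *ADCY2*, *ADCY4*, *ADCY5*, *ADCY7* and *ADCY8* did not pass the filter on low counts, and why their counts were low was not tested.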

Other observations

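The guanylyl cyclases, which make cGMP and share the catalytic fold of the adenylyl cyclases, gave a related family from the same libraries. Of 8 genes, 5 were tested and none was past the thresholds (edgeR), with 0 at an unadjusted p-value under 0.05 in either direction. The median log2 fold change was 0.05, against -0.01 over all tested genes. The soluble subunits *GUCY1A1*, *GUCY1A2* and *GUCY1B1* had log2 fold changes of -0.01 (standard error 0.09), 0.25 (standard error 0.17) and 0.05 (standard error 0.16), at 60.7, 68.7 and 13.8 CPM in the IgG IP. The natriuretic peptide receptor *NPR2* had the lowest value, at -0.48 (standard error 0.45), with 1.03 CPM in the IgG IP.

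The letters GGAC, part of the consensus for N6-methyladenosine, were also counted in the 3′UTRs. There were 35 in *ADCY1* (3.84 per kb), 8 in *ADCY9* (2.56 per kb), 4 in *ADCY3* (5.24 per kb) and 8 in *ADCY6* (3.34 per kb). The median over tested genes was 2.28 per kb, and 86.8% of their 3′UTRs held a match. *ADCY3*, which met neither threshold for enrichment, had the densest 3′UTR of these 4 members. A match is a description of the sequence, and methylation was not measured.

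The annotation gives *ADCY1* 5 transcripts of 763 to 12657 bases and *ADCY9* 7 of 569 to 7980 bases. *ADCY3* has 13 transcripts and *ADCY6* 9. The counts are per gene, so which transcript of a member was in the IP was not measured.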
